A study of Mus musculus with 4 samples.

Results

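The HoxC cluster is the run of 9 Hox genes on mouse chromosome 15, and its chromatin accessibility was described here in embryonic limb cells. The members were taken by name (Hoxc4, Hoxc5, Hoxc6, Hoxc8, Hoxc9, Hoxc10, Hoxc11, Hoxc12 and Hoxc13), and all 9 were found among 22367 annotated protein-coding genes (GENCODE M1, mouse build mm9). They lie on the plus strand from Hoxc13 to Hoxc4, at chr15:102751534-102867274, a span of 115.7 kb. The readout was ATAC-seq, in which the Tn5 transposase tags open DNA. Each of 4 libraries has its own list of called summits, single positions where the signal of an accessible region peaks. The series concerns limb malformation and the non-coding locus Maenli, which acts on the engrailed-1 gene.

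There were 2 groups of embryos at stage E11.5, with 2 libraries each. The stop cassette group carried an inserted cassette, a device used to end transcription early. The titles write it 3xpA, and the labels give neither the insertion site nor the number of altered alleles. The wild-type group carried no labelled change. Both groups had the strain label c57bl6.J X 129S6.sv, and in both the tissue pooled forelimb and hindlimb cells. Cells were fixed before transposition, which the groups also share. The labels do not say how many embryos went into a library. The peak names inside the wild-type lists carry a shared replicate number with a sub-number, so these 2 libraries may not be independent embryos, and p-values then measure only the spread between libraries.

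Hox genes encode homeodomain transcription factors that give cells their position along the body axis. In a cluster, genes at the Hoxc4 side are switched on earlier and further towards the head than genes at the Hoxc13 side, and Polycomb complexes keep the unused genes silent. In limb buds HoxA and HoxD genes carry most of the patterning. HoxC genes are known from the limb mainly for differences between forelimb and hindlimb, with Hoxc10 and Hoxc11 expressed in the hindlimb. Because the samples pool both limbs, a weak summit from fewer open cells and one from a lower degree of opening per cell cannot be told apart.

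The lists held 51701 to 107827 summits, with the longest and the next longest from stop cassette libraries. Read depth is unknown, so each score was turned into a percentile within its own list, from the weakest to the strongest summit. A percentile of 0 here means that no summit was called. As a check of the tissue label, 7 of 11 limb mesenchyme genes had a summit within 1 kb of a start in all 4 lists, and 0 of 5 liver genes had one in any list. The share of all protein-coding genes held in all 4 lists was 57.5%, so the limb count lay near that background. Of genes that mark other cell types, 3 of 6 blood genes, 1 of 5 endothelial genes, 2 of 7 surface ectoderm genes, 1 of 4 muscle precursor genes and 2 of 4 neural genes were held in all 4 lists. Their part in the HoxC values was not tested.

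The 5′ ends of Hoxc10 and Hoxc13 had a summit within 1 kb in every library, and those of Hoxc12 and Hoxc9 in none. The 250 bases before the Hoxc13, Hoxc12 and Hoxc9 ends are shown because they differ in accessibility but little in CG content. They were read from the NCBIM37 (mm9) genome, plus strand, with every CG dinucleotide in capitals.
Hoxc13, chr15:102751284-102751533: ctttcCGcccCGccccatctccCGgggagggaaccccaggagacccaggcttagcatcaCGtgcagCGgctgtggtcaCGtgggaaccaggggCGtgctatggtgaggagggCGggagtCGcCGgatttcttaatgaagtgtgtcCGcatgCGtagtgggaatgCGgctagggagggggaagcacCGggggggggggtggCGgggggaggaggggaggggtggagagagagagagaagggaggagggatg
Hoxc12, chr15:102766938-102767187: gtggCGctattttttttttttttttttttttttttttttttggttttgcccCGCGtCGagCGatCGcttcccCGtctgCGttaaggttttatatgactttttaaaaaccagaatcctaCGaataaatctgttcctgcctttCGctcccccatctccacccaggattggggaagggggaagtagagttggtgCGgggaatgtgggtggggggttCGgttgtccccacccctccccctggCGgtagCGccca
Hoxc9, chr15:102806620-102806869: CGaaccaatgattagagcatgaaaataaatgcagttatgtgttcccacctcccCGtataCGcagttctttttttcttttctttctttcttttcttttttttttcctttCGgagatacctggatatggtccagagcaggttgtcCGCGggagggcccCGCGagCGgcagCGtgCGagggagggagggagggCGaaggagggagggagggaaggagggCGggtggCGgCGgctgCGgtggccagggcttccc
The Hoxc13 stretch held 15 CG. The stretches without a summit nearby held 14 CG before Hoxc12 and 16 before Hoxc9.

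Across the cluster, 5 of 9 genes had a summit within 1 kb of an annotated start in stop cassette replicate 1, 6 in stop cassette replicate 2, 5 in wild-type replicate 1 and 3 in wild-type replicate 2. Among all protein-coding genes the shares in the same lists were 61.5%, 64.5%, 59.1% and 61.6%. Hoxc13, Hoxc10 and Hoxc6 were held in all 4 lists, 3 of 9 genes against 57.5% of protein-coding genes. Hoxc12 and Hoxc9 were held in no list, against 34.5%. The remaining 4 genes were held in 1 to 3 lists, a state that is rare among all genes: 2.48% were held in exactly 1 list, 2.37% in 2 and 3.15% in 3. It was not particular to HoxC, as each other Hox cluster had such genes. Of 11 HoxA genes 4 were held in all lists and 1 in none. The counts were 0 and 7 of 10 HoxB genes, and 5 and 0 of 9 HoxD genes. No start summit was counted for more than 1 member.

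**Figure D1:**
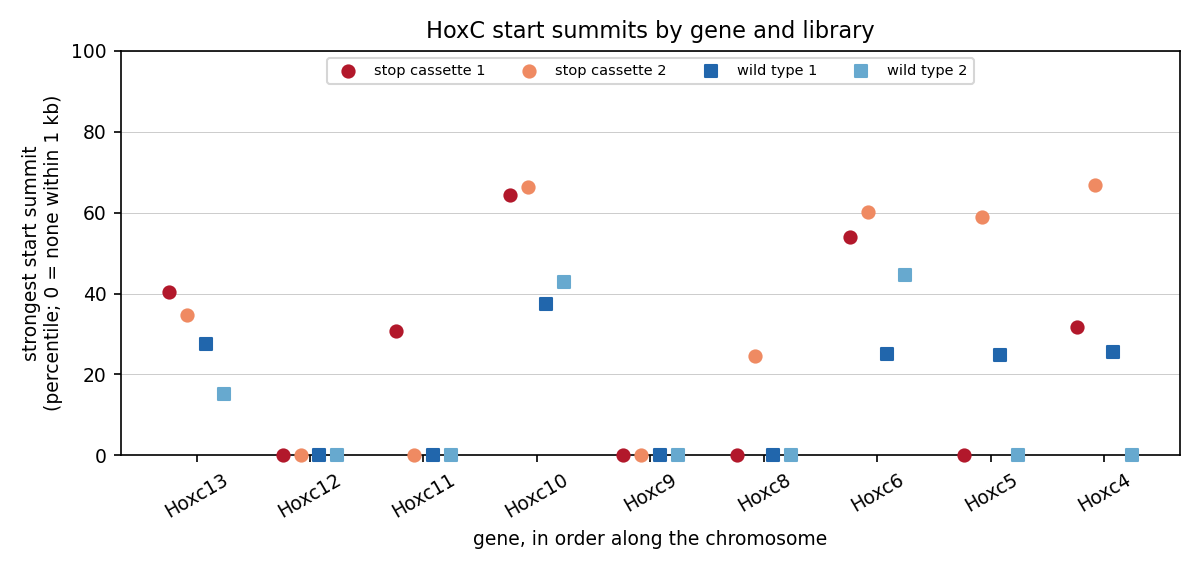
Percentile of the strongest summit within 1 kb of an annotated start (vertical axis, 0 where none was called) for each HoxC gene (horizontal axis, in chromosomal order), with 1 point per library. Hoxc13, Hoxc10 and Hoxc6 have points above 0 in all 4 libraries, Hoxc12 and Hoxc9 in none, and no point passes the 66.8 percentile of Hoxc4 in stop cassette replicate 2.

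Open HoxC starts ranked low for promoters. The strongest start summit of any member was at the 64.2, 66.8, 37.5 and 44.5 percentiles in stop cassette replicates 1 and 2 and wild-type replicates 1 and 2. The median over all protein-coding genes with a start summit was 90.0, 92.6, 85.5 and 88.6 in the same lists. No member reached that median in any list. The same held for every gene of the HoxA, HoxB and HoxD clusters. Their highest start percentile was 80.9, for Hoxd1 in stop cassette replicate 2.

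Among the genes of the posterior part, Hoxc13 (ENSMUSG00000001655.6, chr15:102751534-102759245), known for its role in hair and nail formation, had its strongest start summit at the 40.4 and 34.7 percentiles in stop cassette replicates 1 and 2. In wild type it was at 27.5 and 15.3. All 4 values were low, and both stop cassette values lay above both wild-type values. This order was lost once the lists were cut to equal length, as given below. The strongest summit lay before the gene in each list. There the annotation places Gm17649, a short coding model on the other strand at chr15:102751146-102751251, so the summits cannot be assigned to either start.

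Hoxc12 (ENSMUSG00000050328.2, chr15:102767188-102769040) had no summit within the gene in any list. The nearest ones lay 15872 bp before its start in stop cassette replicate 1, 9678 bp in stop cassette replicate 2, 16096 bp in wild-type replicate 1 and 15113 bp in wild-type replicate 2. Hoxc11 (ENSMUSG00000001656.3, chr15:102784858-102788139), a hindlimb and kidney patterning gene, was held in stop cassette replicate 1 alone. Its summit lay 737 bp inside the gene, in coding sequence, at the 30.6 percentile.

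Hoxc10 (ENSMUSG00000022484.7, chr15:102797227-102802324) acts in the lumbar spinal cord and the hindlimb. Its start reached the 64.2 and 66.4 percentiles in stop cassette replicates 1 and 2. In the wild-type libraries it reached 37.5 and 42.9. The groups did not overlap in the lists as deposited, and the wild-type values were close to each other. The nearest summits lay 88 to 262 bp before the start in the 4 lists.

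Hoxc9 (ENSMUSG00000036139.6, chr15:102806870-102815530), which sets thoracic identity in motor neurons, has 2 annotated starts, at 102806870 and 102807463. Neither had a summit within 1 kb. In the stop cassette libraries the nearest summits lay 4708 and 4735 bp downstream of the second start, in the gene. In wild type there was none in the gene, and the nearest lay 9306 and 9773 bp upstream of the first start.

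Of the genes on the anterior side, Hoxc8 (ENSMUSG00000001657.6, chr15:102821053-102824698), a regulator of the thoracic skeleton and of brachial motor neurons, was held in stop cassette replicate 2 alone. That summit lay 48 bp before the start at the 24.6 percentile. Hoxc6 (ENSMUSG00000001661.4, chr15:102828688-102842312), expressed in the proximal forelimb, has 3 annotated starts. Its strongest start summit was at the 54.0 and 60.2 percentiles in stop cassette replicates 1 and 2 and at 25.2 and 44.5 in wild type. The groups did not overlap in the lists as deposited, though the wild-type replicates differed by more than the gap between the groups. At equal list length the groups overlapped, as given below. In the wild-type lists the start summits lay within 1 kb of the second start alone, at 102830960. The 5′ end, at 102828688, had a summit within 1 kb in each stop cassette library and in no wild-type library. These summits were weak, at the 11.7 percentile in stop cassette replicate 1 and at 26.1 and 14.3 in stop cassette replicate 2. With the lists cut to equal length, neither stop cassette list kept a summit there, so this contrast cannot be separated from list length.

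Hoxc5 (ENSMUSG00000022485.2, chr15:102844246-102847860), which acts with Hoxa5 in cervical motor neurons, was held in stop cassette replicate 2 at the 58.9 percentile and in wild-type replicate 1 at 24.9. The other two lists had no start summit there, so the spread within each genotype exceeded the difference between them. Hoxc4 (ENSMUSG00000075394.3, chr15:102849367-102867274), the most anterior member, had start summits at the 31.7 and 66.8 percentiles in stop cassette replicates 1 and 2, 25.6 in wild-type replicate 1 and none in wild-type replicate 2. All of them lay near the second annotated start, at 102864826, and none near the first.

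The order of the 9 genes by the mean of the 4 percentiles was Hoxc10 (52.8), Hoxc6 (46.0), Hoxc4 (31.0), Hoxc13 (29.5), Hoxc5 (20.9), Hoxc11 (7.66), Hoxc8 (6.15), then Hoxc12 and Hoxc9 at 0. Neighbours in this order overlapped in their ranges over the libraries throughout. The order did not follow position along the whole cluster. From Hoxc13 to Hoxc4 the genes were held in 4, 0, 1, 4, 0, 1, 4, 2 and 3 lists.

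CG content around the 5′ ends did not separate the members by accessibility. The windows from 250 bases before to 50 after the 5′ end held 17 CG for Hoxc13 and 19 for Hoxc10, whose 5′ ends had a summit in all 4 lists. They held 16 for Hoxc12 and 18 for Hoxc9, with a summit in none. Hoxc8 held the most, 27, with a summit in 1 list. Hoxc4 held the fewest, 6, and its 5′ end had no summit in any list, because the Hoxc4 summits lay near the second start. Across the genome the median was 21 CG at protein-coding 5′ ends with a summit in all 4 lists and 3 at those with none. All 9 HoxC windows held more than 3.

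**Figure D2:**
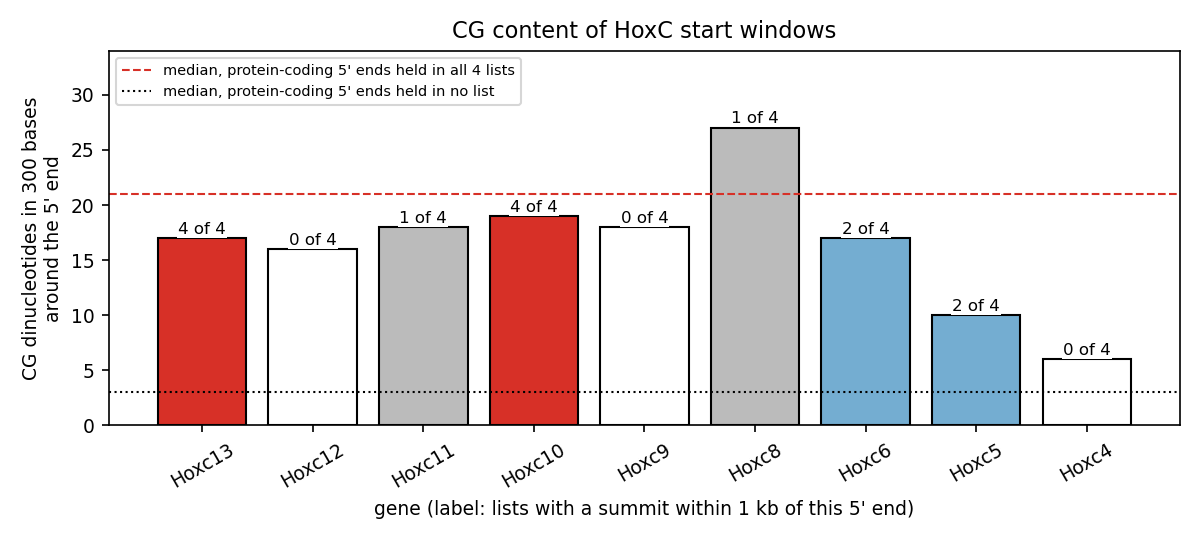
CG dinucleotides in the 300 bases around the 5′ end of each HoxC gene (bars; labels and colours give the lists with a summit within 1 kb of that end), with the medians of protein-coding 5′ ends held in all 4 lists (dashed, 21) and in none (dotted, 3). The bars of Hoxc12 and Hoxc9, with no summit in any list, differ by at most 3 CG from those of Hoxc13 and Hoxc10, with one in all 4.

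A further 6 short letter patterns were searched on both strands of the same windows. The TATA letters TATAAA were in 1 of 9 windows, that of Hoxc12, against 13.4% of all protein-coding starts. GGGCGG was in 5 of 9 against 43.4%, CCCTC in 8 of 9 against 67.4% and TAATTA in 1 of 9, that of Hoxc10, against 4.83%. TGATTNAT and TGACAG, letters bound by Hox proteins with PBX or MEIS partners, were in 0 of 9, against 2.84% and 18.1%. These are matches of letters in 300 bases and say nothing of binding.

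All summits between the first and the last base of the cluster numbered 13 in stop cassette replicate 1, 23 in stop cassette replicate 2, 10 in wild-type replicate 1 and 8 in wild-type replicate 2. Both stop cassette libraries had more than both wild-type libraries. The means were 18 ± 7.07 and 9 ± 1.41 (SD, n = 2 each; exact permutation p = 0.333, two-sided, the smallest that 2 against 2 libraries allow). Per 10000 summits of the own list the values were 1.64 and 2.13 with the stop cassette (95% Wilson intervals 0.961 to 2.81 and 1.42 to 3.20) and 1.93 and 1.17 in wild type (1.05 to 3.56 and 0.592 to 2.31). Here the groups overlapped, and the difference of 0.337 was smaller than either SD (exact permutation p = 0.667). With only the 51701 strongest summits of every list kept, both genotypes had a mean of 7 summits in the cluster. With scores above the median of all lists pooled, the means were 6.5 with the cassette and 0.5 in wild type, and the difference per 10000 summits was 1.13 (exact permutation p = 0.333). This cut was on scores not ranked within lists and left lists of unequal length. It therefore cannot separate genotype from list length or read depth.

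The summits inside the cluster were mostly weak. Their median percentile was 31.7 and 25.4 in stop cassette replicates 1 and 2 and 25.02 and 22.0 in wild type. A single summit of all lists passed the 75th percentile of its own list, at 76.7 in stop cassette replicate 2, in an intron of Hoxc6. The mean percentile was 24.2 ± 2.07 in wild type (SD, n = 2) and 34.3 ± 0.0617 with the cassette (SD, n = 2; exact permutation p = 0.333), a difference of 10.2 as deposited and of 1.69 at equal list length (exact permutation p = 0.667).

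**Figure D3:**
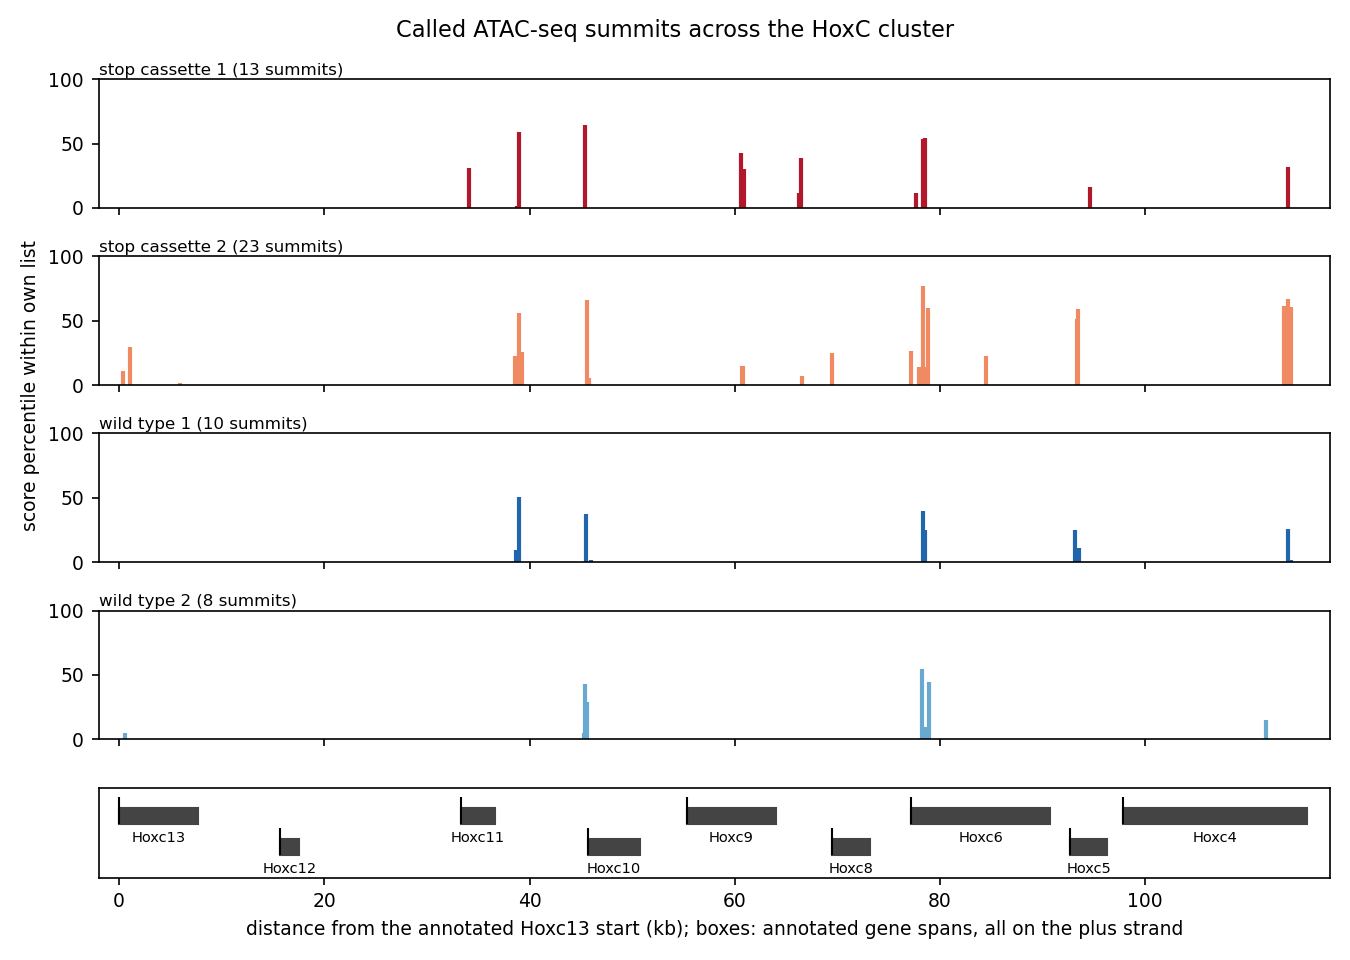
Called summits inside the HoxC cluster in each library, as lines whose height is the percentile within the own list (vertical axis), against the distance from the annotated Hoxc13 start in kb; boxes mark the 9 genes. Summits recur in all 4 libraries just before Hoxc10 and in an intron of Hoxc6, and none was called in any library over Hoxc12.

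Within the cluster, the longest stretch without a summit in any list ran for 28.1 kb, at chr15:102757511-102785594. It held the starts of Hoxc12 and Hoxc11 and the whole of Gm16258, for which RefSeq gives the symbol Hotair, a long non-coding RNA transcribed against the Hox genes. The second, of 17.2 kb at chr15:102846121-102863285, held the first start of Hoxc4. The third, of 14.6 kb at chr15:102797565-102812170, held the Hoxc9 starts and the microRNA gene Mir196a-2, which had no summit within 1 kb in any list. The other microRNA gene of the cluster, Mir615 inside Hoxc5, had summits within 1 kb at the 15.96 and 58.9 percentiles in the stop cassette replicates and 24.9 in wild-type replicate 1, and none in wild-type replicate 2. Gm20398, a long non-coding transcript model that begins in Hoxc10, shares the summits before the Hoxc10 start.

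Merged over the lists (250 bp added on either side of a summit, regions joined where they overlapped by at least 1 bp), the cluster held 16 regions. Of these, 3 were in all 4 lists (32.0% of 74669 regions genome-wide), 2 in 3 lists, 3 in 2 lists and 8 in 1 list (35.4% genome-wide). Stop cassette replicate 2 alone held 5 of the 16 (22.1% of regions genome-wide). The regions common to all lists lay at the Hoxc13 start, at the Hoxc10 start and in an intron of Hoxc6. Their median percentile was 52.8 (mean of the 4 lists), against 76.0 for the 23894 such regions of the genome.

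The 5 strongest regions of the cluster, by the mean percentile with 0 for a list without the region, began with the Hoxc6 intron region, chr15:102828939-102830686. It ranked at the 54.0, 76.7, 39.6 and 54.9 percentiles in stop cassette replicates 1 and 2 and wild-type replicates 1 and 2. This region also holds summits counted above for the Hoxc6 start. The Hoxc10 start region, chr15:102796612-102797814, came next with the values given for the gene. The Hoxc11-Hoxc10 region, chr15:102789870-102791052, lay between genes, and its summit was 5666 bp downstream of the Hoxc11 start. It ranked at 59.2 and 55.9 with the stop cassette and at 50.7 in wild-type replicate 1, and wild-type replicate 2 did not hold it. Its strongest summits in the 3 lists lay within 16 bp of each other, though the region was 1183 bp wide. The spread was 31 bp in the Hoxc4 region, also held in 3 lists. Over 4 lists it was 174 bp at Hoxc10 and 373 bp in the Hoxc6 intron. The remaining regions of the 5 lay over coding sequence of Hoxc4 (chr15:102864822-102865965) and at the Hoxc13 start (chr15:102750842-102752325).

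A further 4 windows are shown from regions whose strongest summit lay more than 1 kb from a protein-coding start. They come from the Hoxc11-Hoxc10 intergenic region, a region of the stop cassette lists alone and the region common to all lists in Hoxc6. The last comes from the strongest intergenic region of the flanks. Each window is 250 bases around the strongest summit, mm9, plus strand. Capitals mark AGNNGGCGC, letters found at the core of many binding sites of the insulator protein CTCF. The Hoxc9-Hoxc8 and Hoxc6 intron windows carry 1 match each, and the Hoxc11-Hoxc10 and Smug1 windows carry none.
Hoxc11-Hoxc10, chr15:102790399-102790648: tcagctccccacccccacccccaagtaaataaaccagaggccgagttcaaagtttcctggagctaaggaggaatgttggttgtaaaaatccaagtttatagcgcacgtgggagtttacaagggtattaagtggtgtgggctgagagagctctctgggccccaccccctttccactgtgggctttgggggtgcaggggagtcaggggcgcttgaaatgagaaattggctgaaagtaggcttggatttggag
Hoxc9-Hoxc8, chr15:102817856-102818105: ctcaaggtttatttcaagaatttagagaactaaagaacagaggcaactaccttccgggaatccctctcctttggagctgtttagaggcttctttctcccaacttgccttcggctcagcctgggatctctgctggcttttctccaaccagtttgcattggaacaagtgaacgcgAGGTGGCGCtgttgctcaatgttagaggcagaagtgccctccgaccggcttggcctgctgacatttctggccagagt
Hoxc6 intron, chr15:102829722-102829971: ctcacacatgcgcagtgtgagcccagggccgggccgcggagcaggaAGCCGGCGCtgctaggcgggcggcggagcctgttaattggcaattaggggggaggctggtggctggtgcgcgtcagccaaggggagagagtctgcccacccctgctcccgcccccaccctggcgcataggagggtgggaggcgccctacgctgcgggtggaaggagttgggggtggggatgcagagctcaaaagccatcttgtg
Near Smug1, chr15:102993629-102993878: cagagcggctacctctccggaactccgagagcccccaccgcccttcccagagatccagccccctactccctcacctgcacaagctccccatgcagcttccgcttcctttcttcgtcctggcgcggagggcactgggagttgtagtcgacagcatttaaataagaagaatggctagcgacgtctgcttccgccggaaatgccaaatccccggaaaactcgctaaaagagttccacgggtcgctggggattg
The AGNNGGCGC pattern was chosen after sequences of the cluster had been seen. In windows of 300 bases around the strongest summit it was in 6 of 16 cluster regions, against 8.43% of all regions and 13.1% of those in all 4 lists. The cluster held 18 matches in all, of which 12 lay within 250 bp of a summit of at least 1 list. The share of cluster bases that near a summit was not computed, so this count has no background. The pattern itself contains CG. The median CG count per window was 17.5 in cluster regions, 5 in all regions and 15 in those in all 4 lists. A second pattern from the same kind of site, 12 letters long and also chosen after sequences had been seen, was in 0 of 16 cluster windows, against 10.6% of all regions. It had 6 matches in the cluster, and 0 of them lay within 250 bp of a summit. The match in the Hoxc6 intron, at chr15:102829768-102829776, lay 17 to 110 bp from the nearest summit of each list. Another, at chr15:102818029-102818037, lay between Hoxc9 and Hoxc8, where each stop cassette library had a summit and no wild-type library did. The matches are descriptions of letters and do not show that the protein was bound.

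Within the cluster 2 regions were stop cassette-specific, that is, called in each stop cassette library but in no wild-type library, and 0 were wild type-specific. With the flanks of 200 kb the counts were 8 and 0 of 57 regions, against 10.0% and 0.313% genome-wide. The share of stop cassette-specific regions was thus near the background. The 2 inside the cluster lay over coding sequence of Hoxc9 (chr15:102811921-102812714; 42.6 and 14.8 percentiles) and between Hoxc9 and Hoxc8 (chr15:102817511-102818332, within an intron of the long transcript model Gm20398; 38.8 and 6.87). At equal list length stop cassette replicate 2 no longer held either, and 1 of the 8 kept its pattern, at chr15:103021410-103021929 beside Cbx5 (44.2 and 75.7 percentiles as deposited). The other five lay at chr15:102566597-102567259, chr15:102615395-102615977, chr15:102899397-102899973, chr15:102915280-102915825 and chr15:102958193-102958911, with percentiles between 4.16 and 52.1.

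By gene, the start percentile was higher in both stop cassette lists than in both wild-type lists for Hoxc13, Hoxc10, Hoxc6 and Hoxc4, or 4 of 9 members. The background was 26.0% of protein-coding genes. At equal list length Hoxc10 and Hoxc6 were still held in all 4 lists, Hoxc13, Hoxc5 and Hoxc4 in 2 lists each and the others in none. Hoxc10 then stood at the 45.3 and 29.9 percentiles with the stop cassette and at 37.5 and 24.4 in wild type, so that its groups overlapped. The groups of Hoxc6 overlapped too, at 29.6 and 16.99 with the stop cassette and at 25.2 and 26.5 in wild type. The reverse order was seen for 0 of 9, against 2.62%. The mean over the 9 genes was 13.5 ± 2.98 in wild type (SD, n = 2) and 29.6 ± 7.11 with the cassette (SD, n = 2), with an exact permutation p of 0.333. At equal list length the difference was -0.876 (exact permutation p = 1). The number of genes held was 5.50 ± 0.707 against 4 ± 1.41 (SD, n = 2 each; exact permutation p = 0.667). With scores above the pooled median alone the means were 3 genes and 0 genes (exact permutation p = 0.333). That cut again left lists of unequal length. After Benjamini-Hochberg adjustment over the 6 comparisons between genotypes, the exact permutation p-values were 0.5 or 0.667.

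Compared with the other Hox clusters, HoxC lay between HoxD and HoxB. HoxD had the highest mean share of genes with a start summit and HoxB the lowest. On average 52.8 ± 13.98% of HoxC genes had a start summit (SD over 4 libraries), against 80.6 ± 13.98% of the 9 HoxD genes, 63.6 ± 22.3% of the 11 HoxA genes and 15 ± 12.9% of the 10 HoxB genes. HoxC was below HoxD in 4 of 4 libraries (difference -27.8 percentage points, exact sign-flip permutation p = 0.125) and above HoxB in 4 of 4 (37.8, p = 0.125, exact), where 0.125 is the smallest p that 4 libraries allow. Against HoxA the difference of -10.9 points was smaller than its SD over libraries (exact sign-flip permutation p = 0.375). At equal list length HoxC was below HoxD by 11.1 points (exact sign-flip permutation p = 0.625), and it was the higher of the 2 in both stop cassette lists. Adjusted over the 7 comparisons with other loci, the exact p-values were 0.292 for HoxB and HoxD and 0.438 for HoxA.

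**Figure D4:**
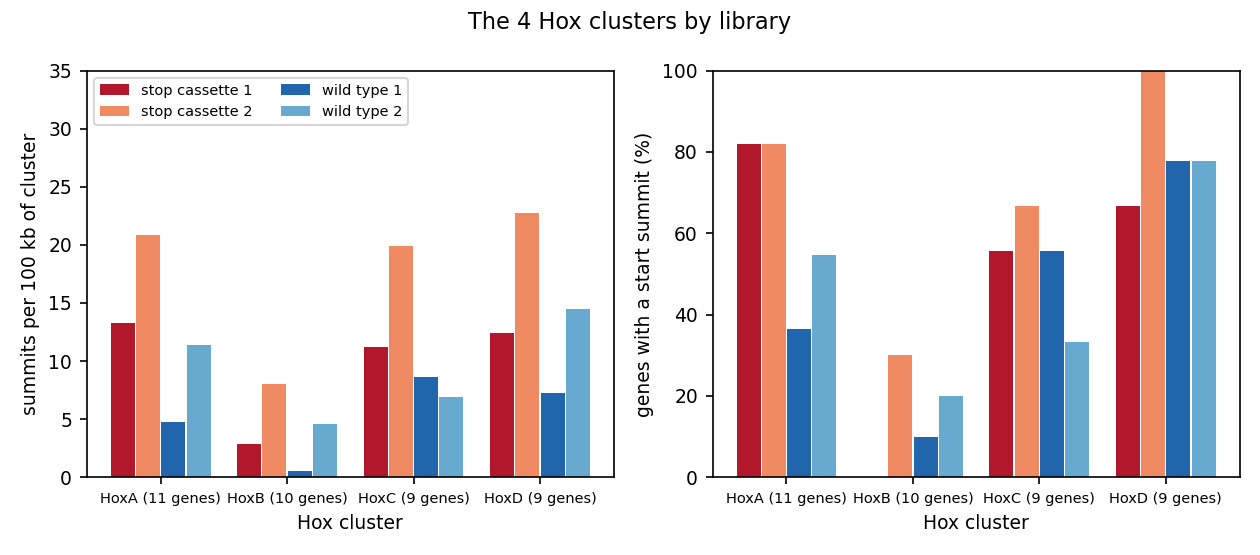
Summits per 100 kb of cluster (left) and percent of genes with a start summit (right) for the HoxA, HoxB, HoxC and HoxD clusters, with 1 bar per library. HoxB bars are lowest in both panels in every library, and HoxC gene shares lie below those of HoxD in every library.

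By density, the HoxC cluster had 11.2, 19.9, 8.64 and 6.91 summits per 100 kb in stop cassette replicates 1 and 2 and wild-type replicates 1 and 2. The genome as a whole had 2.98, 4.06, 1.94 and 2.58. The HoxC density was above that of HoxB in 4 of 4 libraries (difference 7.64, exact sign-flip permutation p = 0.125). It was below those of HoxA and HoxD in 3 of 4 (differences -0.89 and -2.54, exact sign-flip permutation p = 0.625 and 0.375), with wild-type replicate 1 the exception for both. Hoxb13 lies far from the other HoxB genes. Without it, in a setting added after the data had been seen, HoxB had 6.20 ± 4.54 summits per 100 kb (SD over 4 libraries). HoxC was then higher in 3 of 4 libraries, by 5.47 on average (exact sign-flip permutation p = 0.25), and wild-type replicate 2 had 8.26 in HoxB against 6.91 in HoxC.

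Members of the same paralog group, the genes that descend from a common ancestral Hox gene, were not open alike. In group 10, Hoxc10 had a higher mean percentile (52.8) than Hoxa10 (33.3) and Hoxd10 (33.5). It was above both in stop cassette replicate 1 and wild-type replicate 1 alone. Hoxa10 was higher in stop cassette replicate 2 (68.2 against 66.4) and Hoxd10 in wild-type replicate 2 (57.5 against 42.9). In group 11, Hoxc11 (7.66) lay below Hoxd11 (35.2) and above Hoxa11 (0). In group 9, Hoxc9 (0) lay below Hoxd9 (32.5) and Hoxa9 (7.24), and in group 12 Hoxc12 (0) lay below Hoxd12 (18.7). In group 13, Hoxc13 was at 29.5, below Hoxd13 (57.2) and Hoxa13 (50.8), which shape the digits. In group 6, Hoxc6 (46.0) was close to Hoxa6 (41.6). These levels are given with no test.

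The start pattern most like the median of the 9 HoxC genes (30.6, 34.7, 24.9 and 0 over the 4 lists) among the other Hox genes was that of Hoxd3 and Hoxd4. Their mean absolute difference was 9.89 percentile points over 4 lists for both, and their values were identical in each list. Whether the same summits were counted for both genes, also in the HoxD share of genes, was not checked. Hoxd11 came next at 12.6.

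Genes known to act with or on Hox clusters were held as follows. Of the 9 genes for TALE cofactors, homeodomain partners that bind DNA with Hox proteins, 8 were held in all 4 lists and Meis3 in 3. A list of 21 genes covered Polycomb and Trithorax proteins, which keep Hox genes off or on, and CTCF. Of these, 19 were held in all 4 lists. The retinoic acid receptor genes Rara, Rarb and Rarg and the growth factor gene Gdf11 were held in all 4, whereas Cdx1 and Cdx2, caudal genes of the trunk, were each held in 1 list and Cdx4 in none. For comparison, 57.5% of protein-coding genes were held in all 4 lists.

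The flanks of the cluster held the strongest regions of the stretch. Summits within 200 kb on either side numbered 42 and 57 in the stop cassette libraries and 17 and 31 in wild type. Per 10000 of the list these were 5.31 and 5.29 (95% Wilson intervals 3.93 to 7.18 and 4.08 to 6.85) against 3.29 and 4.53 (2.05 to 5.27 and 3.19 to 6.43). The difference of 1.39 was larger than either SD (exact permutation p = 0.333), and it was 0.387 at equal list length (exact permutation p = 0.667). The cluster had 2.48 more summits per 100 kb than its flanks, in 3 of 4 libraries (exact sign-flip permutation p = 0.375). With scores above the pooled median alone the difference was -0.414, and with flanks of 100 kb it was 5.54 (exact sign-flip permutation p = 0.125).

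On the Hoxc13 side, 12 merged regions were called, 11 of them in the part towards Calcoco1, a gene for a coiled-coil protein. The strongest lay at the Calcoco1 start (chr15:102552072-102553288), at the 99.6, 99.4, 96.5 and 99.6 percentiles. After it came chr15:102583509-102584155 (60.4, 81.0, 60.7 and 79.6) and chr15:102576804-102578136 (63.3, 74.05, 65.0 and 59.0), both intergenic. All 3 were in every list, and their groups overlapped. Between chr15:102637978 and 102740869, for 102.9 kb, no list had a summit.

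On the Hoxc4 side, 29 regions were called over the same length, 7 of them in all 4 lists. The strongest, chr15:102993463-102994144, was intergenic and 5371 bp upstream of the start of Smug1, a gene for a DNA repair glycosylase. It ranked at the 96.1, 95.8, 86.6 and 92.9 percentiles. A region at an internal start of Cbx5, which encodes the heterochromatin protein HP1-alpha, followed at 90.5, 97.7, 64.9 and 92.1 (chr15:103045247-103046348). The third, chr15:102932107-102933489, was intergenic at 90.8, 87.7, 53.1 and 88.1. Wild-type replicate 1 had the lowest value in each. The annotated Smug1 start itself had no summit within 1 kb in any list. Among the 11 flank regions found in every list the median percentile was 67.2 (mean of the 4 lists), against 52.8 for the 3 in the cluster.

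**Figure D5:**
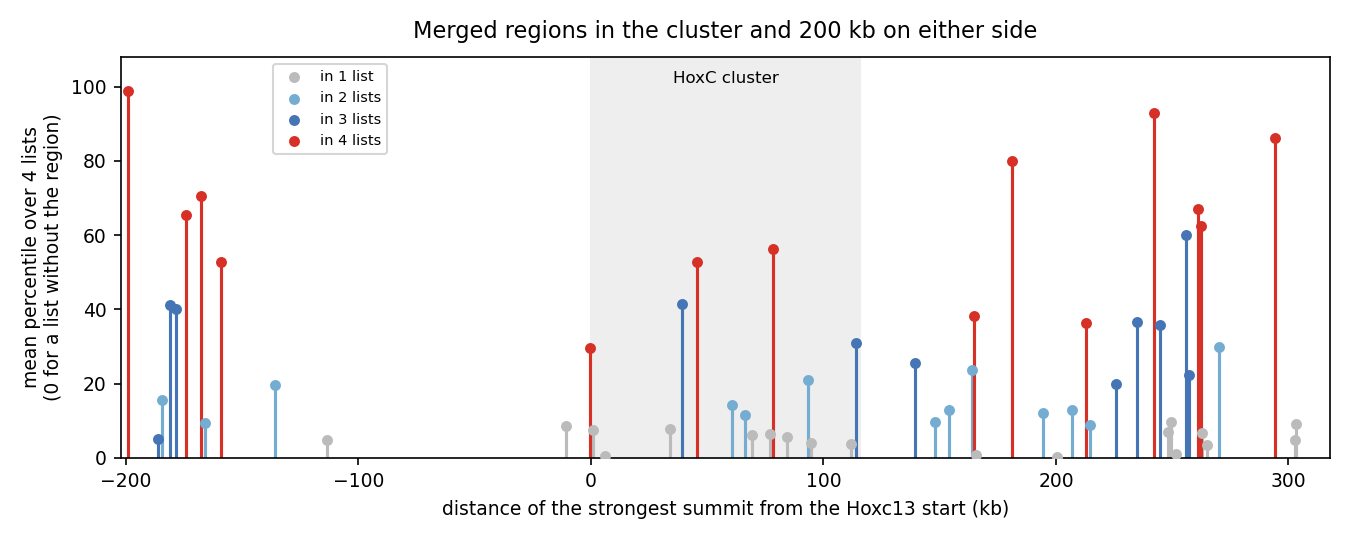
Merged regions from 200 kb before the Hoxc13 start to 200 kb beyond the cluster (horizontal axis, distance from the Hoxc13 start in kb), with the mean percentile over the 4 lists (vertical axis) and colours for the number of lists. The shaded cluster holds no region above 56.3, whereas 8 regions common to all lists in the flanks lie above that value, up to 98.8 at Calcoco1.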

How the data were processed

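The deposited files were 4 lists of summits, 1 per library, with a score that the authors left unnamed. It was read as a −log10 q-value because the lowest deposited score is about 1.3 in each list, and this reading is inferred. Per the submitters' processing notes, reads were aligned to mm9 with Bowtie2 2.2.6 and handled with Picard. Per the names in the deposited lists, duplicates, mitochondrial reads and alignments under a mapping quality of 30 were removed. The peak caller is not given in the sources used here.

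Scores were ranked as percentiles within each list (Python 3.11.15, pandas 2.3.3). Starts were all annotated starts of GENCODE M1 transcripts. A gene was held where a summit lay within 1 kb. Equal list length means the 51701 strongest summits of each list. Genotypes were compared with exact permutation tests over 2 against 2 libraries and loci with exact sign flips over 4. Depth is unknown, so Wilson intervals cover counting error of summits only. The code for region and start counts was run on simulated lists, where 200 of 200 planted regions were recovered. The planted summits lay far apart and none was left out of a list of its genotype. The run therefore checks the code and not the effect of missed calls. Other names followed a rule: genes in the cluster or within 200 kb, the 3 Hox genes most like the HoxC median, paralogs and the listed gene groups. The members and lists were chosen with earlier results of these data known. Replicate numbers did not pair the samples. Some items are not reported here.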

Additional observations from a re-analysis of the deposited data

How the results depend on the processing

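Of 132 recomputed values, 5 turned direction, and several others changed in size. With lists of equal length, the stop cassette minus wild-type difference was 0 for genes held, 0 for summits inside the cluster, 0 per 10000 summits and -0.876 for the mean start percentile, and 2 regions were stop cassette-specific. The difference was 1.69 for the mean percentile of cluster summits and 0.387 for flank summits per 10000. List length moves with genotype here. With scores above the pooled median alone, the genotype differences were 3 genes held, 6 summits and 1.13 per 10000. List length was not made equal by that cut, so these differences stay confounded with it. There HoxC minus HoxB density was 2.45, HoxC minus flank density was -0.414, HoxC minus HoxD density was 0.184, and 5 regions were stop cassette-specific. The mean percentile of cluster summits could not be computed there because a list held none in the cluster. Flanks of 100 kb gave a HoxC minus flank density of 5.54 and 5 stop cassette-specific regions, and flanks of 500 kb gave 15. An extension of 100 bp gave 1 wild type-specific region. Leaving out a library eases the definition of a genotype-specific region, so that the counts could hardly fall. It gave 11 to 20 stop cassette-specific regions and 0 to 2 wild type-specific regions, 2 without wild-type replicate 1. The difference per 10000 summits then ran from -0.0458 to 0.720, negative without wild-type replicate 2, and HoxC minus HoxA density from -2.49 to 0.295, positive without the same library. With the replicate number as a block the differences were the same (16.1 for the mean start percentile, exact permutation p = 0.5, the smallest that 2 pairs allow), and same-numbered libraries deviated together only weakly (r = 0.181 over 23894 regions). Regions are not independent. No read depth is known, so weak or missing summits show only that none was called.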

Other observations

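Wild-type replicate 2 had a longer list than wild-type replicate 1, 68471 against 51701 summits, but fewer summits inside the HoxC cluster, 8 against 10. In the other loci counted it had more: 12 against 5 in HoxA, 8 against 1 in HoxB, 14 against 7 in HoxD and 31 against 17 in the HoxC flanks. It lacked the Hoxc11-Hoxc10 region, the Hoxc5 start and the Hoxc4 coding region, which wild-type replicate 1 held at the 50.7, 24.9 and 25.6 percentiles. These are single libraries, and the difference was not tested.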
